A study of Mus musculus with 4 samples.

Results

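A set of 8 genes for secreted proteins of myeloid cells was followed in immune cells of mouse brain tumours: the chitinase-like lectins Chil3 and Chil1, the resistin-like hormone Retnlg, the WAP domain proteins Wfdc17 and Wfdc21, and the acute phase proteins Saa3, Lrg1 and Hp. They were chosen by name from 31053 genes, with earlier levels and genotype differences of these same libraries known, and all 8 were found. The study profiled tumour-infiltrating immune cells at the symptomatic stage in C57BL/6 mice with single-cell RNA sequencing. The groups were mIDH1 tumours (2 libraries) and wtIDH1 tumours (2 libraries). IDH1 is an isocitrate dehydrogenase, and its mutant form makes D-2-hydroxyglutarate. Both groups come from a genetically engineered glioma model, per the series description. The other engineered alleles, the ages, any treatment, the number of animals in a library and the way the immune cells were isolated are not given in the sources used here.

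Acute phase proteins are secreted in bulk during inflammation, mostly by the liver, under interleukin-6 and interleukin-1 acting through STAT3, C/EBP and NF-kB factors. Some of them are also made by neutrophils, monocytes and macrophages at the inflamed site. Chitinase-like proteins bind sugars but do not cleave chitin, and in mice they mark recruited or alternatively activated myeloid cells. In bone marrow several genes of this kind belong to the granule programme of maturing neutrophils, which makes neutrophil RNA released into the cell suspension a concern when the same transcripts are read in other cells.

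The libraries held 3701 to 4708 barcodes, of which 13123 of 16289 were kept, with medians of 3350 and 2692.5 unique molecular identifiers (UMIs) per kept cell in mIDH1 replicates 1 and 2, and 4955 and 4864 in wtIDH1 replicates 1 and 2. Between 5 and 24 kept barcodes were shared by any pair of libraries. Cells were clustered without the 8 genes, clusters were named from marker genes, and a cell counted only with 2 or more UMIs of its own class's markers. Neutrophil-like cells then numbered 1174 and 1813 in mIDH1, against 117 and 208 in wtIDH1. Monocyte-like cells numbered 322 and 306 in mIDH1, against 833 and 575 in wtIDH1. Macrophage-like cells numbered 491 and 342 in mIDH1, against 359 and 470 in wtIDH1. Microglia-like cells numbered 249 and 89 in mIDH1, against 225 and 216 in wtIDH1. In every library all 16 neutrophil, 8 monocyte, 12 macrophage and 11 microglia markers were detected in the class they name. Microglia-like cells also held 21792 and 26040.3 CPM of the macrophage list in mIDH1, against 17822 and 20042 CPM in wtIDH1, beside 5954 and 5908 CPM of their own list in mIDH1, against 6634 and 11350.1 CPM in wtIDH1. The macrophage list includes complement C1q genes that microglia also express. T cell-like and NK cell-like cells, which should lack the 8 transcripts, served as the background for RNA that is not the cell's own. Levels are CPM, the UMIs of the gene as a share of all UMIs of the class in that library on the usual scale of that unit, so they depend on what else the class expresses. Shares of cells with a UMI at equal depth are shares of the cells with 1000 or more UMIs, each thinned to 1000, since median depth ran from 1375 UMIs in a microglia-like group to 11981 in a macrophage-like group. That left 183 and 67 of the microglia-like cells in mIDH1, against 157 and 166 in wtIDH1, and 1081 and 1714 of the neutrophil-like cells in mIDH1, against 111 and 179 in wtIDH1.

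The class with the highest level differed between the genes. Chil1, Retnlg, Wfdc17, Wfdc21 and Lrg1 were highest in neutrophil-like cells in 4 of 4 libraries, and Saa3 was highest in microglia-like cells in 4 of 4. Chil3 was highest in monocyte-like cells in 3 libraries and in macrophage-like cells in mIDH1 replicate 2. Hp was highest in neutrophil-like cells in 3 libraries and in monocyte-like cells in mIDH1 replicate 1. These orders are descriptions without a test, since the genes were chosen with such levels known.

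**Figure D1:**
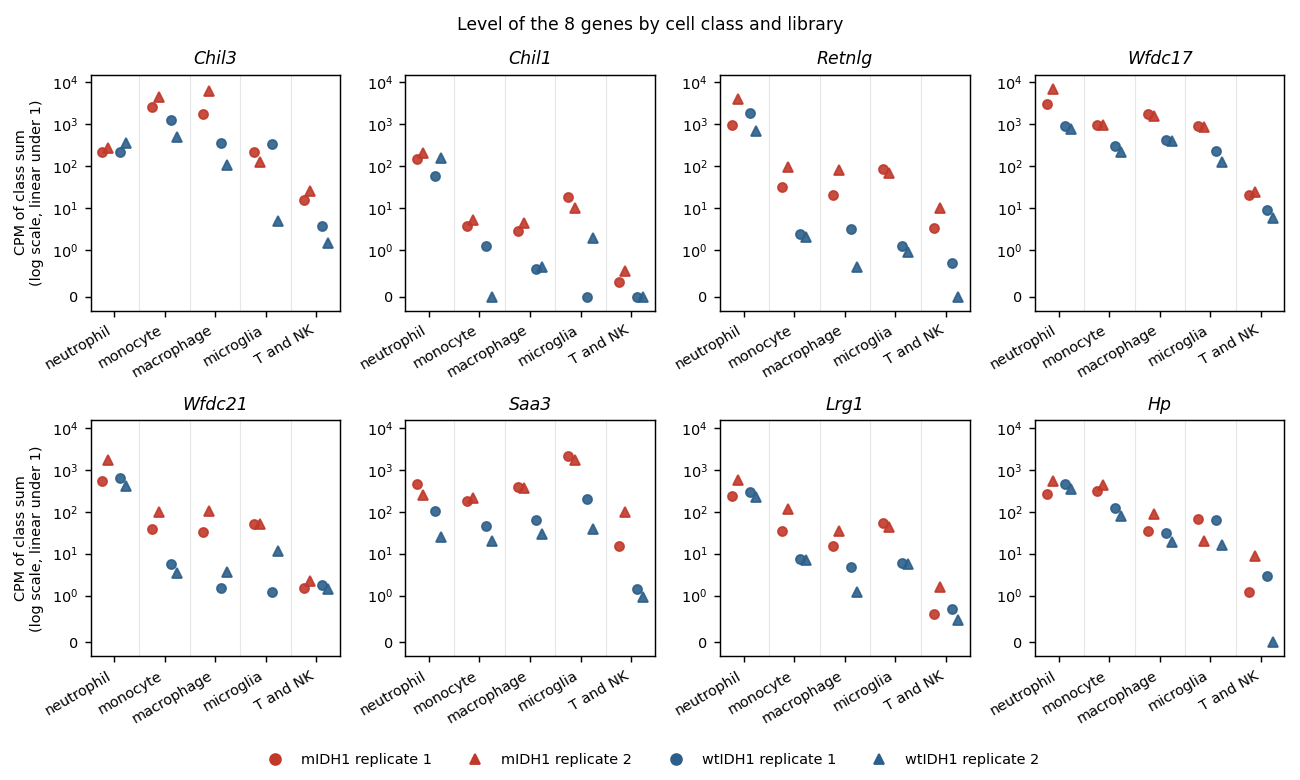
Level of each gene (CPM of the class sum, logarithmic axis that is linear under 1) in 4 myeloid classes and in T cell-like and NK cell-like cells, 1 point per library, mIDH1 left of wtIDH1. Retnlg stands at 670.3 to 3907 CPM in neutrophil-like cells and under 100 CPM in every other class, whereas Chil3 reaches 5977 CPM in mIDH1 macrophage-like cells.

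Chil3 (Ym1; ENSMUSG00000040809, chr3:106147554-106167564 in mm10, minus strand) encodes a lectin secreted by recruited monocytes and alternatively activated macrophages. Monocyte-like cells held 2547 and 4482 CPM in the mIDH1 libraries, against 1268 and 482 CPM in the wtIDH1 libraries. Macrophage-like cells held 1763 and 5977 CPM in mIDH1, against 349 and 103 CPM in wtIDH1. In both classes the lower mIDH1 library stood above the higher wtIDH1 library. Of all genes tested, 57.3% in monocyte-like and 61.3% in macrophage-like cells also showed no overlap of the genotypes, in either direction. At equal depth, 50.8% and 60.7% of monocyte-like cells held a Chil3 UMI in mIDH1, against 40.7% and 23.2% in wtIDH1. In macrophage-like cells the shares were 37.2% and 52.0% in mIDH1, against 15.3% and 6.89% in wtIDH1. T cell-like and NK cell-like cells held 15.02 and 25.4 CPM in mIDH1, against 3.62 and 1.46 CPM in wtIDH1, so the background also ran higher in mIDH1.

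Within macrophage-like cells, Chil3 sat mostly in 1 of the 2 clusters. In cluster 5, led by Ccl7, Pf4, Arg1 and Mrc1, it stood at 2149 and 6985 CPM in mIDH1, against 1097 and 272 CPM in wtIDH1. In cluster 1, led by Gpnmb and Apoe, it stood at 183 and 294 CPM in mIDH1, against 215 and 80.7 CPM in wtIDH1, so the genotypes overlapped there. Cluster 5 held 413 and 308 of the macrophage-like cells in mIDH1, against 74 and 70 in wtIDH1, whereas cluster 1 held 78 and 34 in mIDH1, against 285 and 400 in wtIDH1. The class difference in Chil3, a log2 fold change of 4.42 (SE 0.79), was 2.95 (SE 0.73) within cluster 5 and 0.94 (SE 0.42) within cluster 1. The mix of clusters moved with the class value. Single cells reached 1639 and 1794 Chil3 UMIs in mIDH1, against 390 and 66 in wtIDH1. The 5 richest cells held 33.9% and 24.9% of the macrophage-like Chil3 UMIs in mIDH1, against 41.5% and 32.0% in wtIDH1.

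The Chil3 UMIs of neutrophil-like cells were concentrated in few cells, above all in wtIDH1. The class held 213 and 264 CPM in mIDH1, against 214 and 342 CPM in wtIDH1, with no separation of the genotypes in level. At equal depth a mean of 7.92% (SD 1.60) of the cells held a UMI in mIDH1, against 4.48% (SD 1.78) in wtIDH1. The 5 richest cells held 62.2% and 47.2% of these UMIs in mIDH1, against 88.2% and 96.7% in wtIDH1, with up to 248 UMIs in 1 cell. In all 4 libraries the richest cell lay in cluster 9, whose leading genes Ngp, Camp and Ltf encode granule proteins. Cluster 9 stood at 618 and 489 CPM in mIDH1, against 530.3 and 1418 CPM in wtIDH1. Macrophage marker RNA was read in neutrophil-like cells too, at 1609 and 603 CPM in mIDH1, against 2060.3 and 2166 CPM in wtIDH1. At the macrophage-like ratio of Chil3 to those markers it would bring 337 and 835 Chil3 UMIs in mIDH1, against 11.6 and 5.36 in wtIDH1. Observed were 534 and 1147 UMIs in mIDH1, against 51 and 121 in wtIDH1, so the observed count was 1.58 and 1.37 times that estimate in mIDH1 and 4.41 and 22.6 times in wtIDH1.

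The promoter of Chil3 is shown because Chil3 was the lectin with the highest fold between genotypes in macrophage-like cells (RefSeq, GRCm38.p6, chr3:106167515-106167814, minus strand, 250 bases before to 50 after the start). Capitals mark matches to TTCNNNGAA (a STAT motif), TTNNGNAA (a C/EBP motif) and TATAAA, searched on both strands together with GGGNNTTTCC (a kappaB motif) and GAGGAAG (an ETS motif).
Chil3: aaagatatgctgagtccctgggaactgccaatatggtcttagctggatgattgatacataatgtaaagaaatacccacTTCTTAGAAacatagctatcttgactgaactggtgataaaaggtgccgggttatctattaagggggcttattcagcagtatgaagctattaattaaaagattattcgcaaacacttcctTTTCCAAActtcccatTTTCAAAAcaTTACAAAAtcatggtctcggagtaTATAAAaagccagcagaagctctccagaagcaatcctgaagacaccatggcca
In it 1 STAT match, 3 C/EBP matches and 1 TATA match were found, with no overlap between motifs. Of 32851 promoters of the same length, 8.30% held the STAT letters, 40.7% the C/EBP letters and 13.6% TATAAA, and 4.29% held 3 or more C/EBP matches. Of the 8 genes, 6 had a promoter in the table, and Wfdc21 and Hp did not. Chil3 also shares 29.4% of the 50-base stretches of its longest coding transcript with other genes, chiefly its neighbour Chil4, and 17.1% in the last 500 bases, where 3' reads fall. Chil4 itself had 7 UMIs in macrophage-like cells and 0 in the other 3 classes over all libraries, and Chil3 counts are uncertain to the extent that reads matching both genes were not counted.

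Chil1 (ENSMUSG00000064246, chr1:134182176-134190181, plus strand) encodes the mouse counterpart of human YKL-40, a lectin stored in neutrophil granules. Neutrophil-like cells held 146 and 203 CPM in mIDH1, against 58.7 and 153 CPM in wtIDH1, and the genotypes overlapped. The other 3 classes held at most 18.2 CPM in mIDH1 and 1.91 CPM in wtIDH1. Neutrophil-like cells carried 85.7% and 95.7% of all Chil1 UMIs of the kept cells in mIDH1, against 51.9% and 88.5% in wtIDH1. At equal depth 11.2% and 15.04% of them held a UMI in mIDH1, against 3.92% and 9.79% in wtIDH1, and a positive cell held a median of 1 UMI in every library. Over the 3 neutrophil-like clusters Chil1 ran from 119 to 249 CPM in mIDH1 and from 14.97 to 361 CPM in wtIDH1, where the lowest value was 1 UMI.

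Retnlg (ENSMUSG00000022651, chr16:48872621-48874496, plus strand) encodes resistin-like gamma, a hormone-like protein of mouse neutrophils and bone marrow. Neutrophil-like cells held 931 and 3907 CPM in mIDH1, against 1825 and 670.3 CPM in wtIDH1, and the genotypes overlapped. Cluster 9, rich in granule genes, held 3021 and 7266 CPM in mIDH1, against 7363 and 2085 CPM in wtIDH1. Cluster 7, led by Cxcr2 and Mmp9, held 432 and 751 CPM in mIDH1, against 171 and 74.5 CPM in wtIDH1. Cluster 8, led by Cxcl2 and Hcar2, held 508 and 2420 CPM in mIDH1, against 793 and 622 CPM in wtIDH1. Retnlg was thus highest in the granule-rich cells but not confined to them. In cluster 9, 57.9% and 78.0% of cells held a UMI at equal depth in mIDH1, against 71.8% and 48.8% in wtIDH1. In cluster 8 the shares were 21.3% and 40.8% in mIDH1, against 13.4% and 6.14% in wtIDH1. Cluster 9 was 196 of 1174 and 581 of 1813 neutrophil-like cells in mIDH1, against 26 of 117 and 38 of 208 in wtIDH1. Outside neutrophil-like cells, monocyte-like cells held 31.7 and 96.2 CPM in mIDH1, against 2.41 and 2.04 CPM in wtIDH1, with 89.2% and 83.7% of the mIDH1 UMIs in 5 cells.

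Wfdc21 (ENSMUSG00000051748, chr11:83746940-83752642, plus strand) encodes a small secreted protein with a WAP domain, a fold shared with protease inhibitors. Neutrophil-like cells held 526 and 1692 CPM in mIDH1, against 625 and 410.1 CPM in wtIDH1, again with overlap. Cluster 9 was highest, at 1500.3 and 3113 CPM in mIDH1, against 2407 and 1237 CPM in wtIDH1. Monocyte-like cells held 38.9 and 95.8 CPM in mIDH1, against 5.70 and 3.46 CPM in wtIDH1. Macrophage-like cells held 32.0 and 103 CPM in mIDH1, against 1.55 and 3.74 CPM in wtIDH1. Within the monocyte-like class, cluster 6, led by Ace and Ear2, held 85.5 and 111 CPM in mIDH1, against 11.1 and 22.4 CPM in wtIDH1, while Retnlg in that cluster was 7.54 and 7.11 CPM in mIDH1, against 0 and 2.24 CPM in wtIDH1. Of the cluster 6 UMIs of Wfdc21, 5 cells held 97.1% and 87.2% in mIDH1 and all in wtIDH1.

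Wfdc17 (ENSMUSG00000069792, chr11:83703991-83706268, plus strand) lies near Wfdc21 and encodes another WAP domain protein, made by activated macrophages and microglia. Neutrophil-like cells held 2968 and 6901 CPM in mIDH1, against 873 and 764 CPM in wtIDH1. Monocyte-like cells held 929 and 919 CPM in mIDH1, against 300.2 and 214 CPM in wtIDH1. Macrophage-like cells held 1749 and 1568 CPM in mIDH1, against 409 and 381 CPM in wtIDH1. Microglia-like cells held 876 and 857 CPM in mIDH1, against 225 and 126 CPM in wtIDH1. The genotypes did not overlap in any of the 4 classes. Such a lack of overlap, in either direction, was common among all genes tested. It held for 50.3% in neutrophil-like, 57.3% in monocyte-like, 61.3% in macrophage-like and 43.6% in microglia-like cells. T cell-like and NK cell-like cells held 20.2 and 23.7 CPM of Wfdc17 in mIDH1, against 9.04 and 5.84 CPM in wtIDH1. The difference was also present in each of the 9 clusters, from 554 and 425 CPM in mIDH1 against 151 and 162 CPM in wtIDH1 in microglia-like cluster 16, to 6504 and 9799 CPM in mIDH1 against 1529.7 and 2196 CPM in wtIDH1 in cluster 9. At equal depth 56.6% and 80.5% of neutrophil-like cells held a UMI in mIDH1, against 37.0% and 26.8% in wtIDH1.

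The Wfdc17 promoter is shown because Wfdc17 was higher in both mIDH1 libraries than in both wtIDH1 libraries in all 4 classes and all 9 clusters (GRCm38.p6, chr11:83703806-83704105, plus strand), with capitals for the same 5 motifs.
Wfdc17: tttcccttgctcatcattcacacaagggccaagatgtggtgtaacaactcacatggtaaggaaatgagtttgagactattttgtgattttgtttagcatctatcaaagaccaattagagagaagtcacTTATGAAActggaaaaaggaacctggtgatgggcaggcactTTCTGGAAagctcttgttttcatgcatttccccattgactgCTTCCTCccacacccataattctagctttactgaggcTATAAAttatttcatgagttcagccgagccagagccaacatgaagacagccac
It held 2 C/EBP matches, 1 ETS match on the minus strand, which 13.6% of promoters hold, and TATAAA.

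Saa3 (ENSMUSG00000040026, chr7:46711998-46715700, minus strand) encodes the serum amyloid A form that mouse macrophages and other cells make outside the liver. Microglia-like cells held 2069.7 and 1747 CPM in mIDH1, against 195 and 39.1 CPM in wtIDH1. At equal depth 48.1% and 31.3% of those with 1000 or more UMIs held a Saa3 UMI in mIDH1, against 8.53% and 4.81% in wtIDH1. Over all microglia-like cells, not thinned, the shares were 59.4% and 38.2% in mIDH1, against 12% and 7.41% in wtIDH1. In T cell-like and NK cell-like cells the shares at equal depth were 1.12% and 0.868% in mIDH1, against 0.182% and 0.0870% in wtIDH1. Not thinned, they had a mean of 3.46% in mIDH1, against 0.403% in wtIDH1. The shallow microglia-like cluster 16 (median 1122.5 UMIs) held 1508 and 1824 CPM in mIDH1, against 148 and 80.8 CPM in wtIDH1. The deeper cluster 20 held 2246 and 1652 CPM in mIDH1, against 229.6 and 27.0 CPM in wtIDH1. It numbered only 83 and 10 cells in mIDH1, against 29 and 91 in wtIDH1. In that cluster 5 cells held 98.2% of the Saa3 UMIs of mIDH1 replicate 2 and 96.4% of those of wtIDH1 replicate 1. Macrophage-like cells held less, 378 and 376 CPM in mIDH1, against 64.1 and 29.5 CPM in wtIDH1. There the Gpnmb and Apoe cluster 1 held 934 and 1536 CPM in mIDH1, against 72.7 and 33.4 CPM in wtIDH1. Cluster 5, where Chil3 was high, held 242 and 170.4 CPM of Saa3 in mIDH1, against 16.5 and 0 CPM in wtIDH1. The 2 genes thus peaked in different macrophage-like clusters.

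In neutrophil-like cells Saa3 stood at 467 and 249.8 CPM in mIDH1, against 105 and 25.5 CPM in wtIDH1, and the wtIDH1 values rest on 25 and 9 UMIs. In cluster 8, led by Cxcl2, Hcar2 and Ccl3, 629 and 391 UMIs were read in mIDH1 and 0 in both wtIDH1 libraries, at least 18.5-fold higher in mIDH1 against a floor of 3 UMIs over the wtIDH1 group. That floor covers counting error only and compares 1628 mIDH1 cells with 114 wtIDH1 cells. It takes UMIs as separate counts, although many came from few cells. In mIDH1 replicate 1 a single cell held 273 of the 629 UMIs. The 5 richest cells held 67.6% of the UMIs there and 35.5% in mIDH1 replicate 2. At equal depth 10.4% and 7.40% of neutrophil-like cells held a Saa3 UMI in mIDH1, against 2.96% and 1.91% in wtIDH1. In mIDH1 replicate 2 a single T cell-like or NK cell-like cell held 171 of the 180 Saa3 UMIs read there.

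The Saa3 promoter is shown because Saa3 was the only gene of the 8 that was highest in microglia-like cells in every library (GRCm38.p6, chr7:46715627-46715926, minus strand).
Saa3: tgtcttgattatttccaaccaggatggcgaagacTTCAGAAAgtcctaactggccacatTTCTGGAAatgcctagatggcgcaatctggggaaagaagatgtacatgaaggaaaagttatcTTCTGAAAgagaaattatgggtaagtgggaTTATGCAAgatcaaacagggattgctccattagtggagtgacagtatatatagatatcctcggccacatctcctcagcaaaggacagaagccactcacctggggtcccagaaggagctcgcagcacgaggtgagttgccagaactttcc
It held 4 matches to the C/EBP letters and none to the other 4 motifs in this window, and 1.16% of promoters held 4 or more C/EBP matches. Saa3 shares 3.9% of the 50-base stretches of its longest coding transcript with other genes, chiefly Malat1, and 12.4% in the last 500 bases. Like those of Chil3, its counts are uncertain to the extent that reads matching another gene were not counted.

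Lrg1 (ENSMUSG00000037095, chr17:56119678-56122001, minus strand) encodes a leucine-rich glycoprotein of liver and neutrophil granules that modifies TGF-beta signalling in vessels. Neutrophil-like cells held 238 and 556 CPM in mIDH1, against 289.5 and 223 CPM in wtIDH1. Cluster 9 held 866 and 1218 CPM in mIDH1, against 755 and 681 CPM in wtIDH1, while the Cxcl2 and Hcar2 cluster 8 held only 40.6 and 82.1 CPM in mIDH1, against 14.97 and 8.30 CPM in wtIDH1. Monocyte-like cells held 35.2 and 118 CPM in mIDH1, against 7.34 and 6.93 CPM in wtIDH1, and 12.4% and 27.1% of them held a UMI before thinning in mIDH1, against 3.12% and 3.30% in wtIDH1.

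Hp (ENSMUSG00000031722, chr8:109575128-109579172, minus strand) encodes haptoglobin, which binds free haemoglobin. Neutrophil-like cells held 263 and 537 CPM in mIDH1, against 445 and 342 CPM in wtIDH1, and the genotypes overlapped. Monocyte-like cells held 319 and 428 CPM in mIDH1, against 121 and 80.9 CPM in wtIDH1. There the genotypes did not overlap, as for 57.3% of all genes tested in that class, in either direction. In the granule-rich cluster 9 Hp stood at 681 and 1159.6 CPM in mIDH1, against 1346 and 1126 CPM in wtIDH1. In monocyte-like cluster 6 it stood at 732 and 832 CPM in mIDH1, against 364 and 365 CPM in wtIDH1, above the 254 and 362 CPM in mIDH1 and the 106 and 52.4 CPM in wtIDH1 of cluster 0, led by Ly6c2 and Ccr2. The Cxcl2 and Hcar2 neutrophil-like cluster 8 held 74.5 and 80.7 CPM in mIDH1, against 0 and 49.8 CPM in wtIDH1. Microglia-like cells held 68.3 and 19.6 CPM in mIDH1, against 61.9 and 16.2 CPM in wtIDH1, and the genotypes overlapped.

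**Figure D2:**
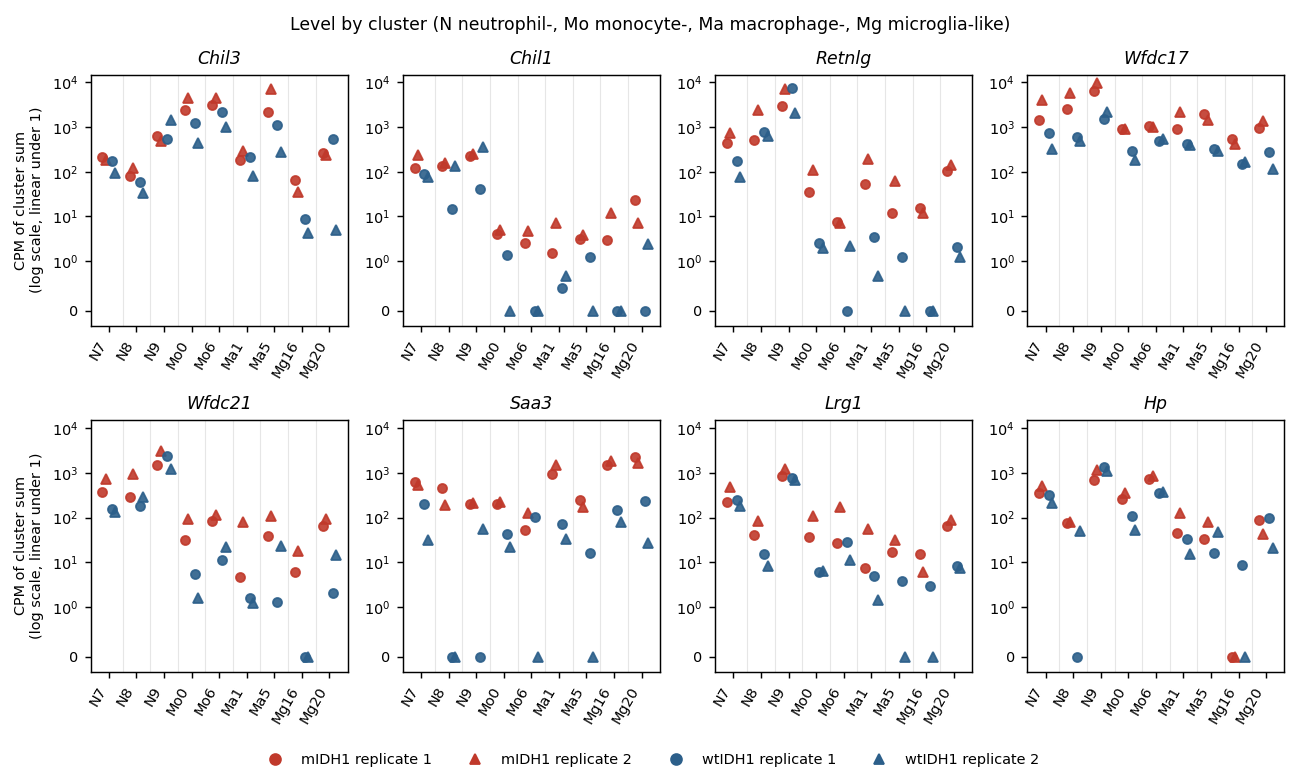
Level of each gene (CPM of the cluster sum, logarithmic axis that is linear under 1) in the 9 clusters of the 4 myeloid classes, 1 point per library, mIDH1 left of wtIDH1. Retnlg stands at 2085 to 7363 CPM in the granule-rich cluster N9, Chil3 in mIDH1 at 2149 and 6985 CPM in Ma5, and Saa3 in mIDH1 at 2246 and 1652 CPM in Mg20. Mg20 holds only 83 and 10 cells in mIDH1.

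**Figure D3:**
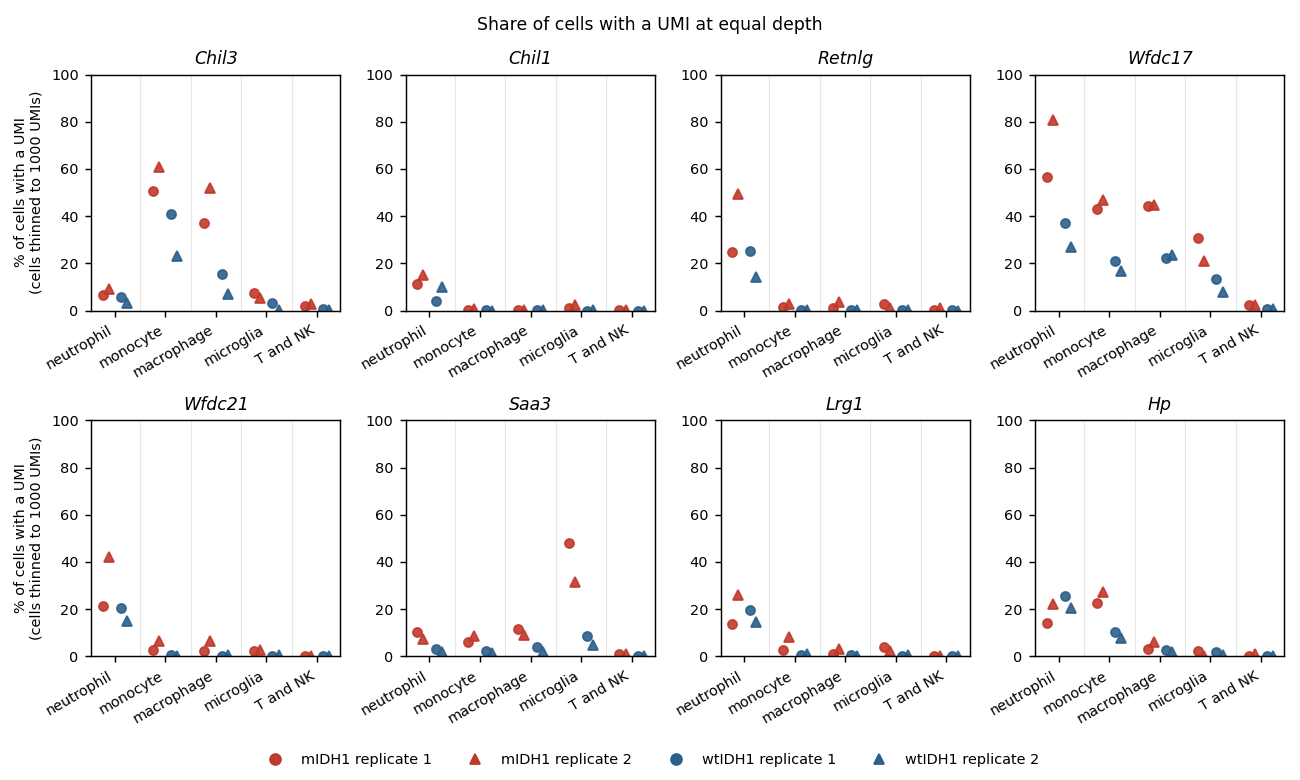
Percentage of cells with at least 1 UMI of each gene among cells with 1000 or more UMIs, each thinned to 1000, by class and library, mIDH1 left of wtIDH1. Wfdc17 is found in 80.5% of neutrophil-like cells of mIDH1 replicate 2, and Saa3 in 48.1% and 31.3% of such microglia-like cells in mIDH1, against 8.53% and 4.81% in wtIDH1.

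Neutrophil RNA outside neutrophil-like cells was measured with 11 neutrophil genes, none of them among the 8. Their sum stood at 1693 and 2802 CPM in mIDH1 monocyte-like cells, against 900.1 and 968 CPM in wtIDH1. In macrophage-like cells it stood at 1297 and 3396 CPM in mIDH1, against 644 and 493 CPM in wtIDH1. In microglia-like cells it stood at 4408 and 7003 CPM in mIDH1, against 302 and 289 CPM in wtIDH1. The sum therefore moved with genotype in each class. If every such UMI came from neutrophil RNA of the same library, that RNA would be 8.62% and 5.45% of the microglia-like UMIs in mIDH1, against 0.716% and 0.707% in wtIDH1. Of the monocyte-like sum, Il1r2 alone made up 145 and 146 CPM in mIDH1, against 557 and 767 CPM in wtIDH1, so the list does not measure neutrophil RNA alone there. Of the 11 genes, 8 could be tested in monocyte-like, 8 in macrophage-like and 7 in microglia-like cells. In monocyte-like cells 5 passed the test as higher in mIDH1 and 1, Il1r2, as lower. In macrophage-like cells 4 passed as higher, and in microglia-like cells 5. Of all genes tested, 4.6%, 5.99% and 0.897% were called higher in these 3 classes. S100a8 had log2 fold changes of 3.59, 3.24 and 6.09 in these 3 classes.

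Retnlg in mIDH1 monocyte-like cells was read at about the number of UMIs that this neutrophil RNA would bring, and in wtIDH1 below it. In mIDH1 monocyte-like cells 93 and 288 Retnlg UMIs were observed where 90.4 and 255 were estimated, ratios of 1.03 and 1.13. In mIDH1 macrophage-like cells the Retnlg ratios were 0.85 and 0.79, and in mIDH1 T cell-like and NK cell-like cells 1.09 and 1.004. The Retnlg ratio was 1.04 and 0.32 in mIDH1 microglia-like cells, and in wtIDH1 it was 0.06 to 0.20 in the 3 myeloid classes. Chil1 had ratios of 0.77 and 1.13 in mIDH1 monocyte-like cells and of 0.76 and 0.80 in mIDH1 macrophage-like cells, against 1.01 and 0 in wtIDH1 monocyte-like cells and 0.65 and 0.34 in wtIDH1 macrophage-like cells. With Il1r2 and Mmp9 left out of the list, an alternative added with the data in view, the Retnlg ratios in mIDH1 were 1.11 and 1.18 in monocyte-like cells and 0.97 and 0.84 in macrophage-like cells. In wtIDH1 monocyte-like cells that list gave Retnlg ratios of 0.16 and 0.76. With S100a8 and S100a9 left out instead, the mIDH1 ratios were 0.69 and 0.76 in monocyte-like cells and 0.46 and 0.48 in macrophage-like cells. Under the 3 lists no Retnlg ratio of these 2 classes in mIDH1 was above 1.18. The genes of the list differed, however. In mIDH1 monocyte-like cells S100a8 stood at 720 and 1153 CPM, against 21505 and 52949 CPM in neutrophil-like cells. The granule gene Ngp stood at 1.02 and 2.34 CPM, against 493 and 1197 CPM. An estimate from granule genes such as Ngp alone would be far lower, so the ratios depend on the genes used. The source of Retnlg in these cells was not tested.

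Wfdc21 stood above the estimate in mIDH1 monocyte-like cells (ratios 2.23 and 2.60) and macrophage-like cells (2.40 and 2.31), and at 1.14 and 0.57 in mIDH1 microglia-like cells. Lrg1 stood at 4.45 and 9.72 in mIDH1 monocyte-like cells and 2.52 and 2.39 in mIDH1 macrophage-like cells. In wtIDH1 monocyte-like cells Wfdc21 had ratios of 0.43 and 0.36 and Lrg1 of 1.19 and 1.31. Leaving out Il1r2 and Mmp9 gave Wfdc21 ratios of 2.42 and 2.72 in mIDH1 monocyte-like cells, against 1.09 and 2.12 in wtIDH1. For Lrg1 it gave 4.82 and 10.2 in mIDH1, against 3.03 and 7.77 in wtIDH1, so the genotypes overlapped for Lrg1. Hp stood at 36.5 and 36.6 in mIDH1 monocyte-like cells, against 12.8 and 9.97 in wtIDH1. With Il1r2 and Mmp9 left out of the list, these Hp ratios were 39.5 and 38.3 in mIDH1, against 32.5 and 59.2 in wtIDH1. Under that list the genotypes overlapped. The ratios of Chil3 were 326 and 858 in mIDH1 macrophage-like cells, against 107 and 24.9 in wtIDH1. Saa3 ratios were 51.4 and 128 in mIDH1 microglia-like cells, against 260.2 and 217 in wtIDH1. Wfdc17 ratios were 23.2 and 8.60 in mIDH1 macrophage-like cells, against 30.7 and 41.4 in wtIDH1, and only 3.42 and 2.28 in mIDH1 microglia-like cells.

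**Figure D4:**
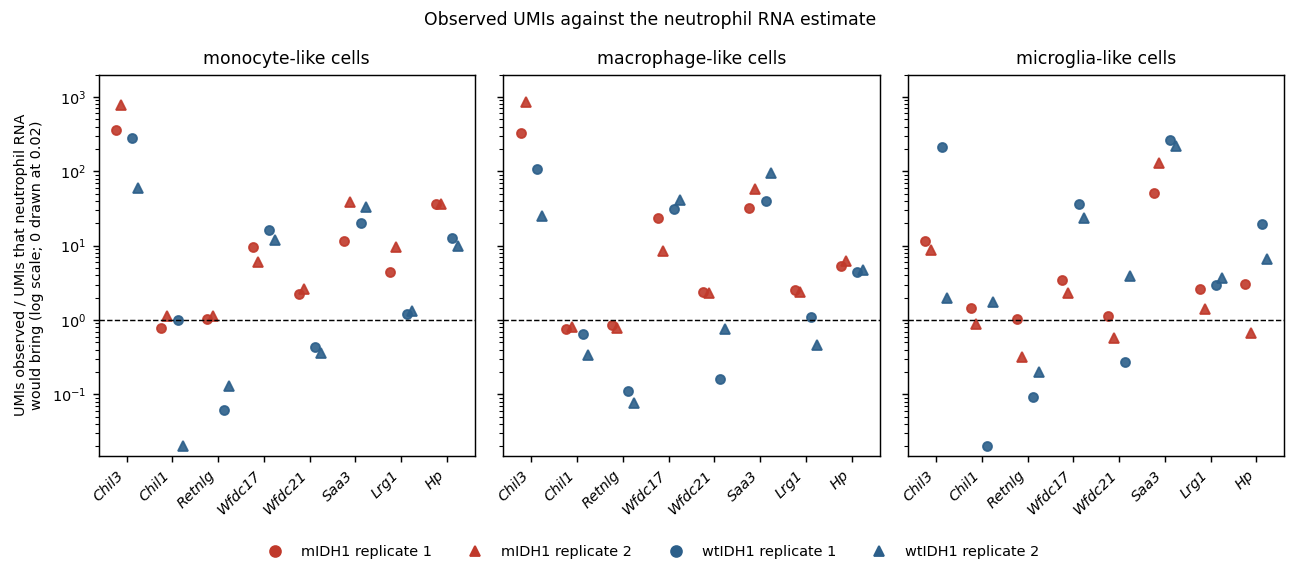
Observed UMIs of each gene divided by the UMIs that neutrophil RNA would bring (logarithmic axis, dashed line at 1, a ratio of 0 drawn near the lower edge), by class and library, mIDH1 left of wtIDH1. Retnlg in mIDH1 lies at 1.03 and 1.13 in monocyte-like cells and 0.85 and 0.79 in macrophage-like cells, whereas Chil3 in mIDH1 macrophage-like cells lies at 326 and 858.

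Cells with no UMI of the 11 neutrophil genes gave a second reading, but this choice also favours shallow cells. In microglia-like cells their median depth was 1381 and 1049 UMIs in mIDH1, against 1317 and 2440.5 in wtIDH1. Microglia-like cells with such a UMI had medians of 5917.5 and 1747 in mIDH1, against 5635 and 5894 in wtIDH1. Macrophage-like cells without one were also shallower in every library. These macrophage-like cells numbered 108 and 20 in mIDH1, against 139 and 209 in wtIDH1. Chil3 in them was 1029 and 3873 CPM in mIDH1, against 325 and 88.9 CPM in wtIDH1. Saa3 in the same macrophage-like cells was 240.3 and 51.6 CPM in mIDH1, against 71.8 and 28.4 CPM in wtIDH1, so the genotypes overlapped there. Wfdc17 was 867 and 562 CPM in mIDH1, against 369 and 414 CPM in wtIDH1, and Hp 11.96 and 64.5 CPM in mIDH1, against 27.9 and 16.9 CPM in wtIDH1. Microglia-like cells of this kind numbered 131 and 29 in mIDH1, against 195 and 186 in wtIDH1. Saa3 in them was 2935 and 1452 CPM in mIDH1, against 133 and 46.3 CPM in wtIDH1. Wfdc17 in those microglia-like cells was 409.5 and 453 CPM in mIDH1, against 197 and 93.9 CPM in wtIDH1. Retnlg left 2 and 1 UMIs in those microglia-like cells in mIDH1, against 0 and 1 in wtIDH1.

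Genotypes were compared within each class by summing UMIs per library and testing all genes with edgeR's quasi-likelihood test, with Benjamini-Hochberg adjustment over every gene tested and a threshold of 0.05. The smallest p of an exact permutation test (two-sided) with 2 libraries on each side is 0.333. The adjusted p-values therefore depend on edgeR's modelled variance and measure only the spread between these libraries. The labels do not say that they came from separate animals.

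The 8 genes were chosen with genotype differences of these same libraries known. Their counts and adjusted p-values in monocyte-like and microglia-like cells are therefore not independent of that choice. In monocyte-like cells 7 of the 8 genes rose in mIDH1, where 4.60% of 9867 genes tested were called higher and 1.51% lower. Retnlg had a log2 fold change of 5.08 (SE 0.55, adjusted p = 0.00254) and Wfdc21 4.09 (SE 0.46, adjusted p = 0.00286), both in cells where the neutrophil list also moved with genotype. With the estimated neutrophil RNA subtracted, Retnlg could not be tested. For Wfdc21 the estimate in wtIDH1, 105 and 47.7 UMIs, exceeded the 45 and 17 UMIs observed, so no UMI was left there. Wfdc21 was then called (adjusted p = 0.00343), but the subtraction itself emptied wtIDH1, so this call cannot show a difference between the genotypes. With Il1r2 and Mmp9 left out of the list, the wtIDH1 estimates were 41.3 and 8.03 UMIs. On the same log2 scale Lrg1 rose by 3.69 (SE 0.51, adjusted p = 0.00608) and Saa3 by 2.78 (SE 0.34, adjusted p = 0.00308). Chil3 rose by 2.26 (SE 0.47, adjusted p = 0.0206), Hp by 2.13 (SE 0.28, adjusted p = 0.00511) and Wfdc17 by 2.08 (SE 0.26, adjusted p = 0.00308). By cluster, Chil3 had 2.34 (SE 0.48) in cluster 0 and 1.44 (SE 0.35) in cluster 6, and Saa3 had 2.94 (SE 0.31) in cluster 0 and 1.01 (SE 0.77) in cluster 6. Chil1 had 2.73 (SE 0.75, adjusted p = 0.0556), on 11 and 15 UMIs in mIDH1, against 10 and 0 in wtIDH1. Without mIDH1 replicate 2 Retnlg alone of the 8 was called (3.95, adjusted p = 0.0463), and the folds of the other 6 ran from 1.68 for Chil3 (adjusted p = 0.305) to 3.18 for Wfdc21 (adjusted p = 0.0522). Chil3 was also not called with DESeq2 (2.29, adjusted p = 0.0686) or with cells gated without clusters (1.15, adjusted p = 0.103). In cells with no neutrophil UMI, Lrg1 (3.13), Hp (1.87), Chil3 (1.46) and Wfdc17 (1.07) were called with adjusted p = 0.0301 to 0.0399, Saa3 was not (0.83, adjusted p = 0.522), and Retnlg, Wfdc21 and Chil1 had too few UMIs to be tested.

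In microglia-like cells 5 of the 7 genes tested rose in mIDH1, where 0.897% of 8031 genes were called higher and 0.0996% lower. Saa3 had a log2 fold change of 4.30 (SE 0.57, adjusted p = 0.000753), Wfdc17 2.58 (SE 0.37, adjusted p = 0.00165) and Lrg1 3.30 (SE 0.45, adjusted p = 0.000944). Retnlg had 6.25 (SE 0.55, adjusted p = 1.21e-05) and Wfdc21 3.16 (SE 0.54, adjusted p = 0.00697). Retnlg rests on 115 and 21 UMIs in mIDH1, against 1 and 1 in wtIDH1, a ratio of 75.7 with a 95% counting interval from 20.6 to 631. Within cluster 16 the Saa3 fold was 4.02 (SE 0.33), and within cluster 20, with 10 cells in mIDH1 replicate 2, it was 4.22 (SE 0.71). The 5 calls held with any 1 library left out, with log2 fold changes of 3.53 to 5.93 for Saa3 and 2.20 to 3.11 for Wfdc17. In cells with no neutrophil UMI Saa3 was called (4.79, adjusted p = 0.000137), Wfdc17 was not (1.71, adjusted p = 0.319), and Retnlg, Wfdc21 and Lrg1 could not be tested. With the estimated neutrophil RNA subtracted, Saa3 (4.37, adjusted p = 0.00373), Wfdc17 (2.07, adjusted p = 0.0304) and Lrg1 (3.13, adjusted p = 0.0406) were called, and Retnlg and Wfdc21 had too few UMIs left. Chil3 (0.34, SE 0.84, adjusted p = 0.935) and Hp (0.66, SE 0.52, adjusted p = 0.704) were not called. Chil3 gave 214 and 127 CPM in mIDH1, against 324 and 4.77 CPM in wtIDH1. Without wtIDH1 replicate 1 the Chil3 log2 fold change was 5.46 (adjusted p = 7.83e-13), and that library's value rests on 267 UMIs of which 5 cells held 92.5%. Without the same library Hp had 1.94 (adjusted p = 0.0144).

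In macrophage-like and neutrophil-like cells the members were chosen from this contrast, so their folds are a description without a p. Their counts past the threshold follow from that choice and support nothing. In macrophage-like cells the count was 7 of 8 as higher, and over all 10519 genes 5.99% were called higher and 1.81% lower. The log2 fold changes there were 5.12 (SE 0.89) for Retnlg, 4.92 (SE 0.70) for Wfdc21, 4.42 (SE 0.79) for Chil3, 3.37 (SE 0.63) for Lrg1, 3.30 (SE 0.36) for Saa3, 2.76 (SE 0.55) for Chil1 and 2.36 (SE 0.19) for Wfdc17. Hp, at 1.61 (SE 0.46), did not pass. Within a macrophage-like cluster the Saa3 fold was larger than over the class, at 4.82 (SE 0.44) in cluster 1 and 4.78 (SE 0.61) in cluster 5. Wfdc17 had 2.19 (SE 0.39) in cluster 1 and 2.64 (SE 0.23) in cluster 5. The neutrophil list moved with genotype in this class as given above, and in cells with no neutrophil UMI the log2 fold changes were 3.78 for Chil3, 2.06 for Saa3, 1.08 for Wfdc17 and 0.17 for Hp. Retnlg, Wfdc21, Lrg1 and Chil1 had too few UMIs there. With the estimated neutrophil RNA subtracted they were 4.46 for Chil3, 3.31 for Saa3, 2.30 for Wfdc17 and 1.71 for Hp. Without wtIDH1 replicate 1, or without wtIDH1 replicate 2, edgeR called 0 genes of the whole table in this class, with 1857 and 1004 genes at an unadjusted p under 0.05. In neutrophil-like cells Wfdc17, at 3.16 (SE 0.55), and Saa3, at 2.93 (SE 0.48), were past the threshold as higher, and over all 7472 genes 0.161% were called higher and 0.0669% lower. With a library left out, Wfdc17 did not pass without wtIDH1 replicate 1 (3.31) or without wtIDH1 replicate 2 (3.11), and Saa3 did not pass without wtIDH1 replicate 2 (2.18). The other 6 ran from 0.26 (SE 0.36) for Chil3 to 1.71 (SE 0.56) for Wfdc21. With RLE scaling neither Wfdc17 (3.19) nor Saa3 (2.94) passed, and with cells gated without clusters all 8 did, from 1.72 for Hp to 4.13 for Wfdc17, with Chil3 at 2.12. Without mIDH1 replicate 2 the neutrophil-like folds of Retnlg, Hp and Chil3 were negative, at -0.24, -0.39 and -0.22. Within the granule-rich cluster 9, Wfdc17 (2.59, SE 0.40) and Saa3 (3.09, SE 0.64) kept a positive fold above 2, while Retnlg (0.63, SE 0.57), Hp (0.06, SE 0.36) and Chil3 (-0.43, SE 0.38) lay nearer 0.

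**Figure D5:**
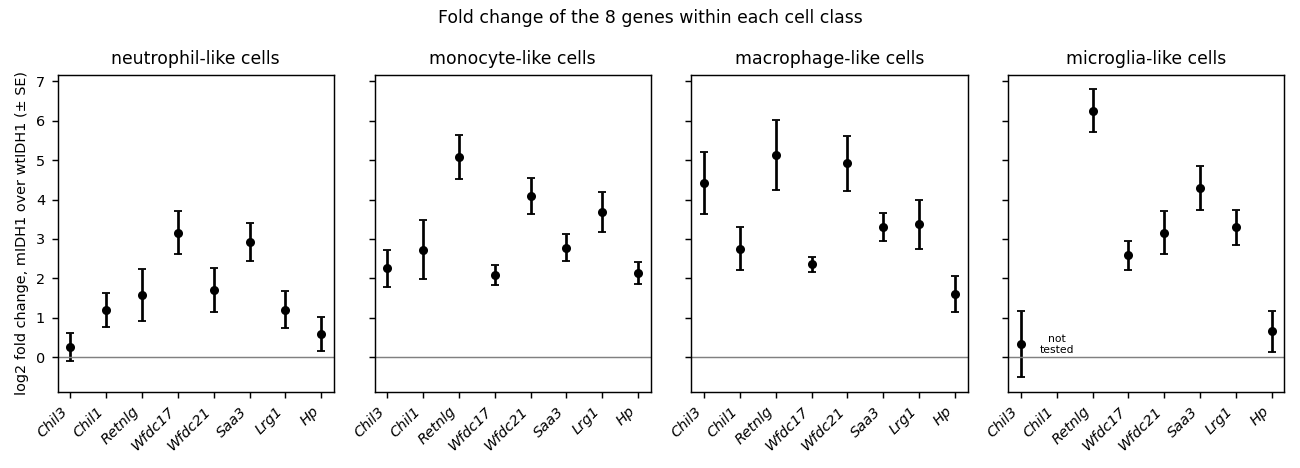
Log2 fold change, mIDH1 over wtIDH1, with its standard error (bars) for each gene in each class, from edgeR fits over all genes. Wfdc17 and Saa3 lie above 2 in all 4 classes, Chil3 runs from 0.26 in neutrophil-like to 4.42 in macrophage-like cells, and Chil1 was not tested in microglia-like cells.

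Other genes of these families and of the pathway were counted from lists that leave out the 8. Over all genes tested, 0.161% were called higher in neutrophil-like, 4.6% in monocyte-like, 5.99% in macrophage-like and 0.897% in microglia-like cells. Called lower were 0.0669%, 1.51%, 1.81% and 0.0996% in the same order. Of 11 other lectins, 3 could be tested in monocyte-like cells and 2 rose, the galectins Lgals3 (log2 fold change 1.43) and Lgals1 (0.90). In macrophage-like cells 3 of 4 rose, the ficolin Fcna (3.72), Lgals3 (1.53) and Lgals1 (1.25). Of 3 other resistin-like genes, Retnla was called in macrophage-like cells, the only one tested there, with 6.74 and 25.1 normalized CPM in mIDH1, against 0 and 0 in wtIDH1. Of 9 other WAP domain genes, Slpi, a secreted inhibitor of leukocyte proteases, rose in monocyte-like (2.10) and macrophage-like cells (3.45), 1 of 2 tested in each. Of 23 other acute phase genes, 3 of 5 tested rose in monocyte-like cells, namely the siderophore-binding Lcn2 (2.92), the serpin Serpina3g (1.57) and the metallothionein Mt1 (1.04). In macrophage-like cells 3 of 6 rose, Lcn2 (3.66), Mt1 (1.46) and Mt2 (1.30). In neutrophil-like cells edgeR called 0 of the 4 lectins, 1 resistin-like gene, 2 WAP domain genes and 4 acute phase genes tested, with 1, 0, 2 and 2 of them at an unadjusted p under 0.05 and 0, 0, 1 and 0 called by DESeq2. In microglia-like cells it called 0 of 3 lectins, 1 WAP domain gene and 5 acute phase genes, with 2, 1 and 4 at an unadjusted p under 0.05 and 0 called by DESeq2.

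Slpi and Lcn2 were also high in neutrophil-like cells, where Slpi stood at 1134 and 2836 normalized CPM in mIDH1, against 429 and 435 in wtIDH1, and Lcn2 at 553 and 2229 in mIDH1, against 558 and 491 in wtIDH1. In monocyte-like cells Lcn2 stood at 28.8 and 61.8 normalized CPM in mIDH1, against 9.54 and 1.47 in wtIDH1, and in macrophage-like cells at 9.09 and 37.7 in mIDH1, against 1.97 and 1.52 in wtIDH1. The neutrophil list moved with genotype in both classes, and its part in the Slpi and Lcn2 folds was not tested.

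Of 16 inducers and signalling genes, 14 were tested in monocyte-like cells and 1 rose, the feedback inhibitor Socs3 (1.26). That count is near the 4.6% of all genes called higher there. In macrophage-like cells 3 of 14 rose, Socs3 (1.30), the cytokine Osm (1.40) and the transcription factor Cebpd (0.83), and Cebpa fell by 0.70. In neutrophil-like cells edgeR called 0 of 12 (2 at an unadjusted p under 0.05, 1 by DESeq2), and in microglia-like cells 0 of 13 (4 at an unadjusted p under 0.05, 1 by DESeq2). Of 14 receptors and partners, the haem-degrading enzyme Hmox1 fell by 0.79 in monocyte-like, 1.30 in macrophage-like and 1.86 in microglia-like cells. Tgfbr1, a TGF-beta receptor, fell by 1.23 in monocyte-like and 1.77 in macrophage-like cells. Scarb1 (0.91) rose in monocyte-like cells, 1 of 12 tested, again near the share of all genes called higher there. Tlr4 (1.13), Itgam (0.83) and Fpr1 (1.68) rose in macrophage-like cells, 3 of 12 tested. Fpr1 (3.73), a formyl peptide receptor that neutrophils also express, rose in microglia-like cells, 1 of 12 tested. In neutrophil-like cells edgeR called 0 of 10, with 1 at an unadjusted p under 0.05 and 0 by DESeq2. The median log2 fold change over all genes tested lay between -0.03 and -0.0048 in the 4 classes.

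Over the 16 sums of class and library, which share libraries and depth, the genes whose log2(CPM + 1) was most like that of Retnlg were S100a8 (Pearson r = 0.99), Lrg1 (0.98) and S100a9 (0.98). Wfdc21 was most like Retnlg (0.97), S100a9 (0.97) and G0s2 (0.96), Lrg1 most like Retnlg (0.98), Igfbp6 (0.96) and Wfdc21 (0.96), and Chil1 most like G0s2 (0.98), Gm20406 (0.97) and Ankrd33b (0.97). Among the genes most like Hp were Ifitm6 (0.94) and Dgat2 (0.94). Chil3 was most like F10 (0.90), Timp1 (0.89) and Sem1 (0.89), Wfdc17 most like Dph3, Selenok (0.93 each) and Fam162a (0.92), and Saa3 most like Gng5 (0.85), Bri3 (0.84) and Hsbp1 (0.83). Between members, Chil3 and Saa3 had r = 0.17 with each other, and Hp and Saa3 -0.0009. These correlations are descriptions of 16 sums.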

How the data were processed

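Single cells were profiled with droplet 3' RNA sequencing in 4 libraries. The deposited files hold UMI counts per gene and cell, not normalized, made by the authors with Cell Ranger 3.1 and STAR against mm10, per the labels and the submitters' processing notes. Cells with at least 200 genes and at most 10% mitochondrial UMIs were kept, predicted doublets were removed (142 and 121 in mIDH1 and 93 and 90 in wtIDH1, at 0.8% per 1000 cells), and the rest were clustered with scanpy 1.11.5 (2000 variable genes without the 8, 30 components, 15 neighbours, resolution 1.0). Of 24 clusters 4 stayed unnamed. Naming needed 3 markers among the top 60 genes, a rule set after the data were seen. The sums of UMIs over each class of a library went into edgeR 4.0.16 (quasi-likelihood, TMM, filterByExpr, Benjamini-Hochberg at 0.05, 4 libraries, mIDH1 over wtIDH1), with DESeq2 1.42.0 as an alternative. The fits were tested on simulated data. Class sums held from 238315 UMIs (neutrophil-like, wtIDH1 replicate 1) upward, where the floor is 3 UMIs. Intervals and floors cover counting error only.

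The 8 genes and all lists were chosen with earlier results of these data known. From the other lists up to 4 called genes with the lowest p per class are named. For likeness, the 3 genes with the highest correlation are named among those with a mean of 20 CPM or more, except that 1 is not reported here. Promoters come from RefSeq (GRCm38.p6). Gene positions were read from the GENCODE mouse annotation (mm10), and 50-base stretches were compared among its transcripts.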

Additional observations from a re-analysis of the deposited data

How the results depend on the processing

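Of the alternatives run for the 8 genes in the 4 classes, 351 kept direction and side of the threshold, 27 gained a call, 37 lost one and 8 changed direction; where they moved, the cause was not tested. The direction changed for Chil3 in neutrophil-like cells with library totals alone (-0.24) and without mIDH1 replicate 2 (-0.22), for Retnlg (-0.24) and Hp (-0.39) in neutrophil-like cells without mIDH1 replicate 2, for Chil3 in microglia-like cells without wtIDH1 replicate 2 (-0.66) and in cells with no stray neutrophil UMI (-2.03), and for Hp in microglia-like cells without mIDH1 replicate 1 (-0.57) and without wtIDH1 replicate 2 (-0.07). All are log2 fold changes. Over the 4 leave-outs these ran from -0.22 to 0.68 for Chil3, -0.24 to 2.53 for Retnlg and -0.39 to 1.10 for Hp in neutrophil-like cells, and from -0.66 to 5.46 for Chil3 and -0.57 to 1.94 for Hp in microglia-like cells. With library totals alone the median of all genes was -0.43 in neutrophil-like, -0.27 in monocyte-like, -0.31 in macrophage-like and -0.27 in microglia-like cells.

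Counts of all genes called moved more than the members did. In neutrophil-like cells 17 genes were called, against 6 with RLE scaling, 262 with library totals, 133 with DESeq2, 336 with no filter, 149 at 5% mitochondrial UMIs, 10 without barcodes shared between libraries (chosen after seeing the data), 1951 with cells gated without clusters, and 49 to 811 with a library left out. In monocyte-like cells 603 were called, against 1311 with no filter, 2345 gated without clusters, 114 in cells with no stray neutrophil UMI and 2 to 683 with a library left out. In macrophage-like cells 820 were called, against 1333 with library totals, 2049 with no filter, 1418 at 5% mitochondrial UMIs, 295 with no stray neutrophil UMI and 0 to 1627 with a library left out. In microglia-like cells 80 were called, against 253 with no filter, 235 gated without clusters, 11 with no stray neutrophil UMI, 27 with neutrophil RNA subtracted and 64 to 308 with a library left out. Where 1 library is left in a group, it is assumed to vary like the other group.

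The replicate numbers do not pair the libraries: deviations of same-numbered libraries had correlations of -0.038, 0.062, -0.201 and -0.134 in the 4 classes. With the replicate block the counts were 56 in neutrophil-like, 1262 in monocyte-like and 226 in macrophage-like cells. With the crossed pairing, chosen after seeing the data, they were 131 in neutrophil-like, 582 in monocyte-like, 2072 in macrophage-like and 505 in microglia-like cells. Depth limits the sums of few UMIs, such as the 25 and 9 Saa3 UMIs of wtIDH1 neutrophil-like cells.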
